A study of Mus musculus with 88 samples.

Results

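The neurotrophins and their receptors were examined here as 6 genes: the ligands Bdnf and Ntf3, the receptors Ntrk2, Ntrk3 and Ngfr, and Vgf, a secreted peptide precursor. They were chosen by name, by matching the Ensembl identifiers of 3 brain region tables to these symbols, and they are 6 of the 48811 genes listed in any of the tables. RNA-seq was done on the medial prefrontal cortex (mPFC), the bed nucleus of the stria terminalis (BNST) and the ventral hippocampus (vHPC) of male inbred mice after chronic social defeat stress (CSDS), in which a mouse is repeatedly exposed to an aggressive mouse. Defeated mice were classed as susceptible or resilient from their approach to an unfamiliar mouse, so the class was a measured behavior and not an assigned treatment, and controls were same-strain mice that were not defeated. The mice were 8 weeks old, of the strains labeled C57BL/6Crl (B6) and DBA/2Crl (D2), and tissue was taken 6 to 8 d after the last defeat. The study's methods name these strains C57BL/6NCrl and DBA/2NCrl. None carried an engineered allele. In the mPFC, B6 groups held 6 mice each (control, resilient, susceptible), while D2 groups held 6 (control) and 8 (susceptible). In the BNST every group held 5 mice except the D2 resilient group with 3. In the vHPC, B6 contributed 6 control, 8 resilient and 3 susceptible animals, and D2 contributed 6 control and 5 susceptible animals. Each library came from 1 mouse, and for 7 mice the mPFC and the vHPC were both sequenced.

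Neurotrophins are secreted proteins that keep neurons alive, guide the growth of their processes and change the strength of synapses. BDNF acts mainly through the receptor tyrosine kinase TrkB (encoded by Ntrk2), and NT-3 (Ntf3) mainly through TrkC (Ntrk3), while p75 (Ngfr) binds all neurotrophins and their uncleaved precursors. In the adult forebrain Bdnf is made largely by excitatory neurons in response to activity, Ntrk2 is made by neurons and, as a form without the kinase, by astrocytes, and p75 is known for the cholinergic neurons of the basal forebrain. Vgf is induced by neurotrophins and activity, and its peptides are released from neurons.

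Values are log2 CPM, gene read counts scaled to the size of the library. The mPFC and vHPC values were normalized and adjusted for batches by the authors. The study lists numbers of analyzed reads, which are not given here for these regions. The BNST values were computed from read counts, with 11825757 to 25793910 gene reads a library (median 15273698). A gene was called where its adjusted p, by limma in the mPFC and vHPC and by edgeR in the BNST, was under 0.05 over all genes of its table. All 6 genes were tested in the vHPC. Ngfr is not listed in the mPFC table, and Ntf3, with 0 to 9 reads a library, was too low for the BNST fit. The groups of each region overlapped in their library preparation sets to different degrees. Control and defeated B6 mice shared 4 of 5 sets in the mPFC and 2 of 2 in the BNST but 0 of 10 in the vHPC. In the mPFC most susceptible B6 mice also shared an ID prefix that no resilient mouse and few B6 controls had. What the prefix stands for is not given. Comparisons of susceptible B6 mice there are therefore largely mixed with it. In bulk tissue, fewer cells of a type and less RNA per cell cannot be told apart. Among marker genes, the cholinergic list summed to 31.4 to 223.8 CPM in the BNST and to 0.398 to 1.83 in the vHPC, where 1 of its 4 genes is listed, and the dentate granule list to 88.5 to 201.0 CPM in the vHPC and 13.7 to 21.6 in the mPFC.

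The 6 genes lie on 6 chromosomes (GRCm38). Bdnf (ENSMUSG00000048482) spans chr2:109674700-109727007 on the plus strand, and 14.4% of its exon bases also belong to the antisense gene Gm45346. Whether reads were counted by strand is not given in the sources used here, so reads from the 2 genes may not be separated. Ntf3 (ENSMUSG00000049107) spans chr6:126101412-126166910 on the minus strand, Ntrk2 (ENSMUSG00000055254) chr13:58806569-59133970 on the plus strand, and Ntrk3 (ENSMUSG00000059146) chr7:78175959-78738012 on the minus strand. Ngfr (ENSMUSG00000000120) spans chr11:95568818-95587735 on the minus strand, and Vgf (ENSMUSG00000037428) chr5:137026392-137033351 on the plus strand. The tables hold 1 value a gene, so they do not separate the several Bdnf start sites or the kinase and truncated forms of Ntrk2.

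A pair of promoter windows are shown because Bdnf and Ntrk2 were the ligand and receptor whose group means were both lower in defeated than in control mice in the vHPC. RefSeq start sites (GRCm38.p6) gave 11 windows, each from 250 bases before a start to 50 after it, for 4 of the 6 genes: 7 for Bdnf, 2 for Ntf3 and 1 each for Ntrk2 and Ngfr, with none for Vgf and Ntrk3. Both strands were searched for the cyclic AMP response element TGACGTCA, for TGACGT, which is contained in it, for the E-box CACGTG and for the GC box GGGCGG. Of all 32851 windows of this length, 1.79% held TGACGTCA, 7.51% TGACGT and 35.7% GGGCGG, and 2349 windows held CACGTG. TGACGTCA was in 0 of the 11 windows, TGACGT in 1 (Bdnf), CACGTG in 1 (Ntf3) and GGGCGG in 6. The capitals mark, in Bdnf, the reverse complement of TGACGT and, in Ntrk2, the GC box, and a match is only a description of these letters.
Bdnf chr2:109692186-109692485, plus strand: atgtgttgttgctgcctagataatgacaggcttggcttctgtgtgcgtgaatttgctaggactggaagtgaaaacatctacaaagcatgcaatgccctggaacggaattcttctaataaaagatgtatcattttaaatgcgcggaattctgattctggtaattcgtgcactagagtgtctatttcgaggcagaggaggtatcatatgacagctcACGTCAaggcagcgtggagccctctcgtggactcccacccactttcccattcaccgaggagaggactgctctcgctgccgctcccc
Ntrk2 chr13:58806319-58806618, plus strand: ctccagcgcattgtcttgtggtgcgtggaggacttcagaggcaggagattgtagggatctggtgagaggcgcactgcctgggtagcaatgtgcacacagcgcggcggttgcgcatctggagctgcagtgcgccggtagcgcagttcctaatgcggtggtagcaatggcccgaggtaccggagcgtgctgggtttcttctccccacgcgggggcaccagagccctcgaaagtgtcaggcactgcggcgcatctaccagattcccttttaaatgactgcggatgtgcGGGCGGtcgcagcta

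The 3 regions differed in which of the genes were abundant. The tables were normalized separately and made with different library kits, so levels across regions are set side by side without a test. Per kilobase of exon, in B6 controls, Ntrk2 (5.42 log2 CPM per kb), Vgf (4.76) and Ntrk3 (3.88) led in the mPFC, ahead of Bdnf (2.82) and Ntf3 (0.02). The vHPC had a like order, with Vgf at 5.44, Ntrk2 at 5.24, Ntrk3 at 4.38, Bdnf at 2.95, Ntf3 at 1.61 and Ngfr at -1.56 log2 CPM per kb. In the BNST Vgf (5.86 log2 CPM per kb), Ntrk2 (4.94) and Ntrk3 (3.90) again led, but Ngfr (2.49) stood far above Bdnf (-3.01) and Ntf3 (-3.51). Both Trk receptors were thus abundant in every library of every region, while the ligands were near the limit of counting in the BNST.

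**Figure D1:**
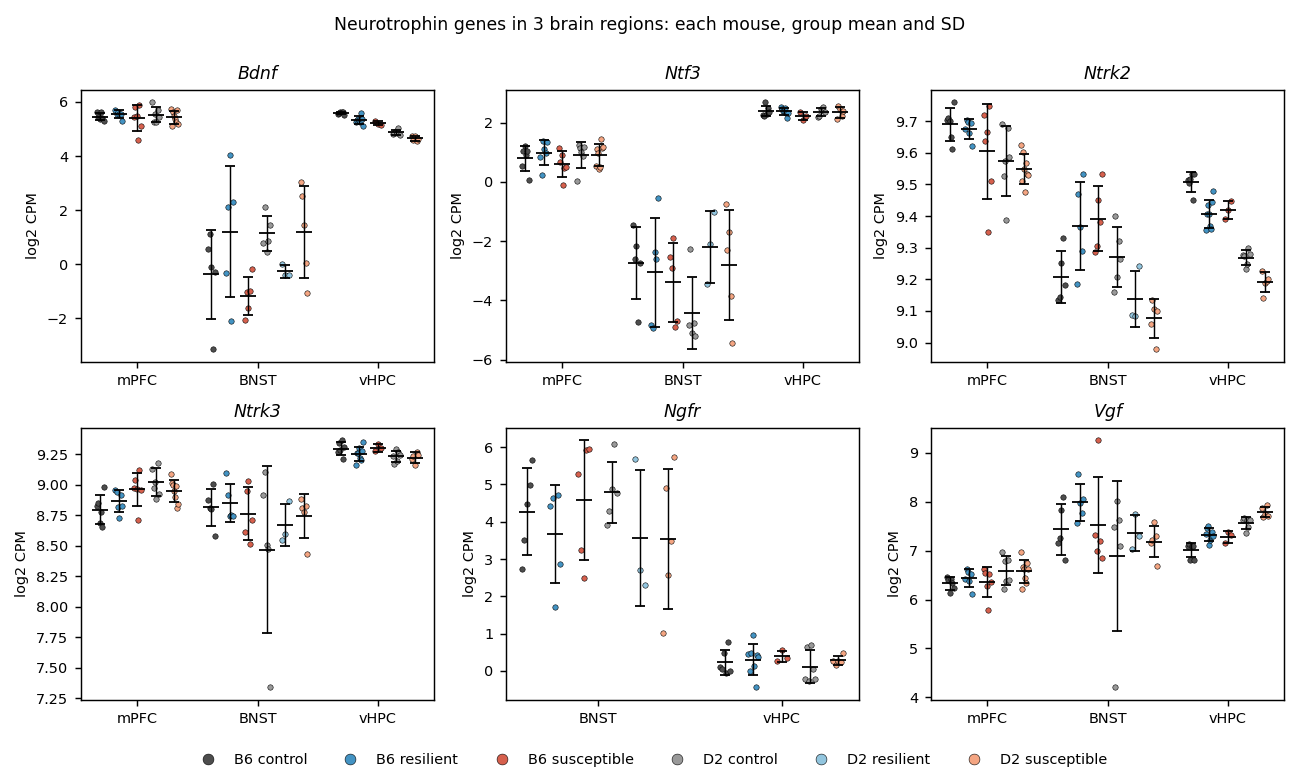
Level of each gene (log2 CPM) in each mouse of the 3 regions by strain and CSDS phenotype, with points for mice and bars for the group mean and SD. Bdnf in the BNST ranges from -3.15 to 4.04 log2 CPM, while Ntrk2 in the BNST stays between 8.98 and 9.53.

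Bdnf differed most clearly in the vHPC, where it was lower in defeated mice of both strains than in their controls. B6 control mice had 5.5 to 5.63 log2 CPM (median 5.6, mean 5.59 ± 0.05 SD, n = 6). Resilient B6 mice had 5.10 to 5.6 (median 5.32, 5.33 ± 0.14, n = 8). The 3 susceptible B6 mice had 5.3, 5.20 and 5.15 log2 CPM, all below every control, whereas the resilient mice overlapped with the controls at their upper end. D2 control mice had 4.78 to 5.05 (median 4.85, 4.87 ± 0.10, n = 6), and the susceptible D2 mice had 4.74, 4.6, 4.73, 4.56 and 4.62 log2 CPM. Every susceptible D2 mouse was below every D2 control, and every D2 mouse was below every B6 mouse. Relative to controls of the same strain, Bdnf fell by 0.26 on the log2 scale in resilient B6 mice (SE 0.055, limma adjusted p = 0.0027), by 0.37 in susceptible B6 mice (SE 0.073, adjusted p = 0.000336) and by 0.22 in susceptible D2 mice (SE 0.062, adjusted p = 0.038). On the linear scale Bdnf decreased by 16.2% in the first, decreased by 22.7% in the second and decreased by 14.3% in the last of these groups. In D2 against B6 controls the log2 fold change was -0.71, or -39.0% (SE 0.059, adjusted p = 1.18e-10). The difference between susceptible and resilient B6 mice was -0.12 (SE 0.069, adjusted p = 0.208), and the decrease was not shown to differ between the strains (interaction 0.15, SE 0.095, adjusted p = 0.384). The B6 comparisons share their controls.

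Ntrk2, the receptor for BDNF, was lower in the same direction but by less. In the vHPC B6 controls had 9.45 to 9.53 log2 CPM (median 9.51, n = 6), resilient mice 9.36 to 9.48 (median 9.41, n = 8), and the 3 susceptible mice 9.39, 9.42 and 9.45. D2 controls had 9.23 to 9.30 (median 9.27, n = 6), and susceptible D2 mice 9.23, 9.14, 9.19, 9.20 and 9.20 log2 CPM. The susceptible groups of both strains lay below their controls without overlap, but by little. The highest susceptible mouse had 9.4473 log2 CPM against 9.4492 in the lowest control in B6, and 9.2277 against 9.232 in D2. That B6 control, replicate 5, was itself apart from the other B6 controls at 9.5 to 9.53. The share of all vHPC genes with groups separate in this way is not given here, which limits Bdnf and Vgf too. The resilient group overlapped with its controls, and D2 controls lay below B6 controls. Ntrk2 fell by 0.10 on the log2 scale in resilient B6 mice (SE 0.026, limma adjusted p = 0.011), by 0.09 in susceptible B6 mice (SE 0.034, adjusted p = 0.0407) and by 0.24 in D2 against B6 controls (SE 0.028, adjusted p = 5.62e-08). In susceptible D2 mice the log2 fold change of -0.08 (SE 0.029) did not pass the test (adjusted p = 0.148). The call in susceptible B6 mice was lost, at adjusted p from 0.0505 to 0.151, when any 1 of B6 control replicates 1, 2, 3, 4 or 6 or any 1 of the 3 susceptible mice was left out.

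Vgf went the other way. In the vHPC B6 controls had 6.82 to 7.141 log2 CPM (median 7.09, n = 6), resilient mice 7.11 to 7.50 (median 7.32, n = 8), and the 3 susceptible mice 7.152, 7.38 and 7.31. D2 controls had 7.37 to 7.68 (median 7.62, n = 6), and susceptible D2 mice 7.88, 7.69, 7.74, 7.93 and 7.71 log2 CPM. Susceptible mice of both strains were above their controls without overlap, although the lowest susceptible B6 mouse was above the highest control by little, and D2 controls were above B6 controls. Vgf rose by 0.32 in resilient (SE 0.068, limma adjusted p = 0.00247) and by 0.27 in susceptible B6 mice (SE 0.089, adjusted p = 0.0177), and was 0.56 higher in D2 than in B6 controls (SE 0.073, adjusted p = 3.58e-07). The log2 fold change of 0.22 in susceptible D2 mice (SE 0.076) did not pass the test (adjusted p = 0.106). Without susceptible B6 replicate 2 or 3 the call in susceptible B6 mice was lost (adjusted p = 0.107 and 0.0633).

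**Figure D2:**
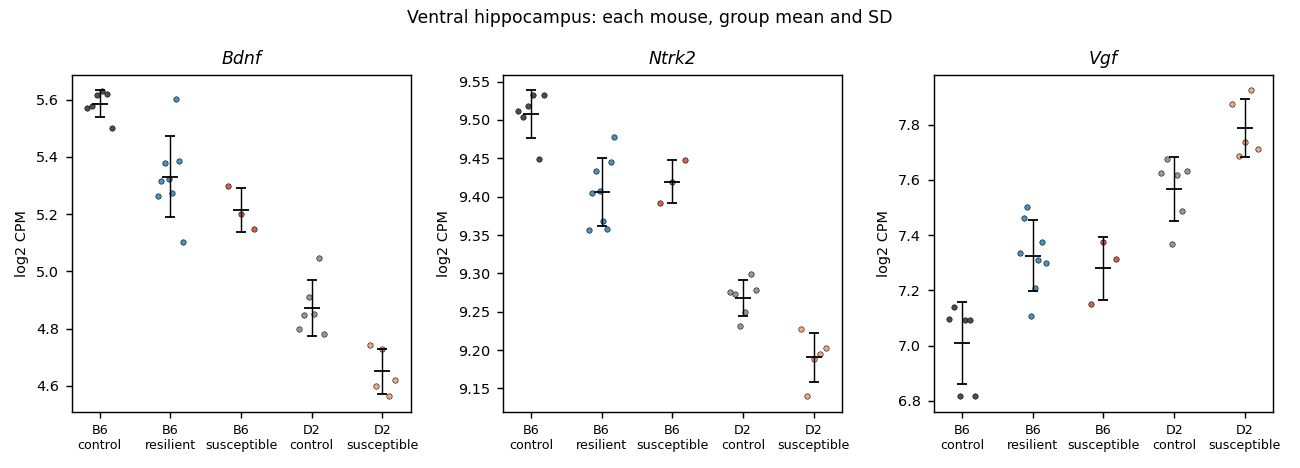
Level of Bdnf, Ntrk2 and Vgf (log2 CPM) in each of the 28 vHPC mice by strain and phenotype, with points for mice and bars for the group mean and SD. Susceptible mice lie below their controls for Bdnf and Ntrk2 and above them for Vgf in both strains.

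The other ligand and receptors did not pass the test in any vHPC comparison, except that Ntrk3 passed between the control strains after quantile normalization (log2 fold change -0.08, adjusted p = 0.0183, range over all alternatives 0.0183 to 0.560, against -0.06 and 0.122 without it). Ntf3 ranged from 2.07 to 2.68 log2 CPM, Ntrk3 from 9.16 to 9.36 and Ngfr from -0.45 to 0.96 over the 28 mice, with overlapping groups. Counted over the 6 genes, 3 were called in resilient B6 mice, where 10.84% of all genes were called, 3 in susceptible B6 mice (40.64% of all genes), 0 between susceptible and resilient B6 mice (27.63%), 1 in susceptible D2 mice (4.28%), 3 between the control strains (59.32%) and 0 for the interaction (0.782%). At an unadjusted p under 0.05, 12 of the 36 vHPC tests passed, against 10 called. The share of all genes at that threshold is not given, here or for the unadjusted counts below. Such counts are therefore not read as a result about these genes.

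These vHPC differences moved together with how the libraries were made and with cell type markers. No library preparation set held both control and defeated B6 mice or controls of both strains, so for these comparisons the group and the set cannot be told apart. Sets 6 and 9 held only B6 controls (2 and 3 mice), and the other B6 control was in set 5 with 2 susceptible D2 mice. With the set in the fit, comparisons with B6 controls therefore rest on that 1 control, and their signs there say little. In the 1 set that held a control and a susceptible D2 mouse, 1 of each, the difference was -0.16 for Bdnf, -0.08 for Ntrk2 and 0.08 for Vgf on the log2 scale. With the set as a covariate 0 of the 6 genes were called in any comparison, although Bdnf, Ntrk2 and Vgf kept their signs in the comparisons of defeated with control mice and of the control strains. Bdnf then had log2 fold changes of -0.25 in resilient B6 mice (adjusted p = 1.0), -0.33 in susceptible B6 mice (adjusted p = 0.548), -0.23 in susceptible D2 mice (adjusted p = 0.931) and -0.70 between the control strains (adjusted p = 0.0704). Over all alternatives the adjusted p for Bdnf ranged from 0.000146 to 1.0 in resilient B6 mice, from 5.73e-05 to 0.548 in susceptible B6 mice, from 0.0125 to 0.931 in susceptible D2 mice and from 7.84e-12 to 0.0704 between the strains. The Bdnf call in susceptible D2 mice was also lost without D2 control replicate 2, 3, 4 or 5 or susceptible replicate 2, 4 or 5 (adjusted p from 0.0522 to 0.117). Vgf in resilient B6 mice went from 0.32 to 0.18 with the library set (adjusted p = 1.0) and 0.19 with the sequencing set (adjusted p = 0.387) as a covariate, with adjusted p from 0.000761 to 1.0 over all alternatives. Its value in susceptible B6 mice was 0.20 with the library set (adjusted p = 0.748, range 0.0106 to 0.748), and in susceptible D2 mice it went from 0.22 to 0.15 and 0.13.

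The mean of Bdnf fell step by step from B6 controls through B6 resilient, B6 susceptible and D2 control to D2 susceptible mice, as did the means of 19.0% of the 19559 vHPC genes, while 15.9% rose in that order. The summed level of 7 oligodendrocyte markers, none at 0, had medians in the same falling order. It was 2283 to 2549 CPM in B6 controls, 1524 to 2477 in resilient, 1258 to 1441 in susceptible, 829.7 to 1340 in D2 control and 729.2 to 925.2 in D2 susceptible mice. The summed level of 4 dentate granule neuron markers, cells in which Bdnf is known to be made, was likewise lower, at 166.6 to 195.3 CPM in B6 controls, 122.0 to 149.9 in susceptible B6 mice and 88.5 to 109.4 in susceptible D2 mice, with none at 0. Other neuron markers, none at 0, went the opposite way between B6 controls and susceptible B6 mice without overlap. The sum was 823.9 to 874.2 against 956.7 to 1031 CPM for 4 excitatory, 110.6 to 147.7 against 180.4 to 196.3 for 5 cortical and 365.9 to 424.5 against 437.7 to 468.4 for 3 inhibitory neuron markers. Their part in the Bdnf, Ntrk2 and Vgf differences was not tested.

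In the mPFC the neurotrophin genes differed little between groups. Of 30 tests, 1 was called by limma and 4 had an unadjusted p under 0.05. The call was Ntrk3, the receptor for NT-3, between the control strains, a comparison in which 27.79% of all genes were called. B6 controls had 8.66 to 8.98 log2 CPM (median 8.80, n = 6) and D2 controls 8.88 to 9.18 (median 9.0, n = 6), with overlap. Ntrk3 was 16.7% higher in D2 (log2 fold change 0.22, SE 0.064, adjusted p = 0.0095), and it was higher in D2 in 4 of the 4 library sets that held both strains, by 0.126 to 0.438. Between the same groups the sum of 7 oligodendrocyte markers was 1075 to 2071 CPM in B6 and 697.4 to 1029 in D2, without overlap, and that of 4 excitatory neuron markers 475.2 to 598.6 in B6 (median 530.3) and 517.7 to 682.8 in D2 (median 611.2), with no marker at 0. Their part in the Ntrk3 difference was not tested. In defeated mice 0 of the 5 measured genes were called, where the share of all genes called was 0% in resilient B6, 2.22% in susceptible B6 and 0% in susceptible D2 mice. Between susceptible and resilient B6 mice 0 were called as well (2.02% of all genes), and the interaction gave 0 (0% of all genes).

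Bdnf in the mPFC ranged from 5.28 to 5.62 log2 CPM in B6 controls, 5.3 to 5.72 in resilient and 4.6 to 5.90 in susceptible mice, and from 5.26 to 5.98 in D2 control and 5.11 to 5.73 in D2 susceptible mice. The groups overlapped throughout, and the log2 fold change was -0.06 (SE 0.157) in susceptible B6 and -0.10 (SE 0.147) in susceptible D2 mice. The first turned to 0.10 without susceptible B6 replicate 4 and to 0.13 once the prefix of the mouse IDs entered the fit, and the second was -0.01 without D2 control replicate 1. Susceptible B6 replicate 4 stood apart from the other 31 libraries. It was the lowest of 32 for Bdnf (4.6), Ntf3 (-0.11), Ntrk2 (9.35) and Vgf (5.78), the lowest for the excitatory neuron markers (364.9 CPM) and the highest for the inhibitory neuron markers (766.9 CPM). Without it, Ntrk3 in susceptible B6 mice was called (log2 fold change 0.22, adjusted p = 0.0434, against 0.17 and 0.157 with it), and so was Ntrk2 between the control strains (-0.12, adjusted p = 0.0439, against 0.101 with it). Over all alternatives these adjusted p values ranged from 0.0305 to 0.915 for Ntrk3 and from 0.00193 to 0.271 for Ntrk2. The Ntrk3 interaction in the mPFC, -0.24 (SE 0.088), did not pass the test (adjusted p = 0.445).

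**Figure D3:**
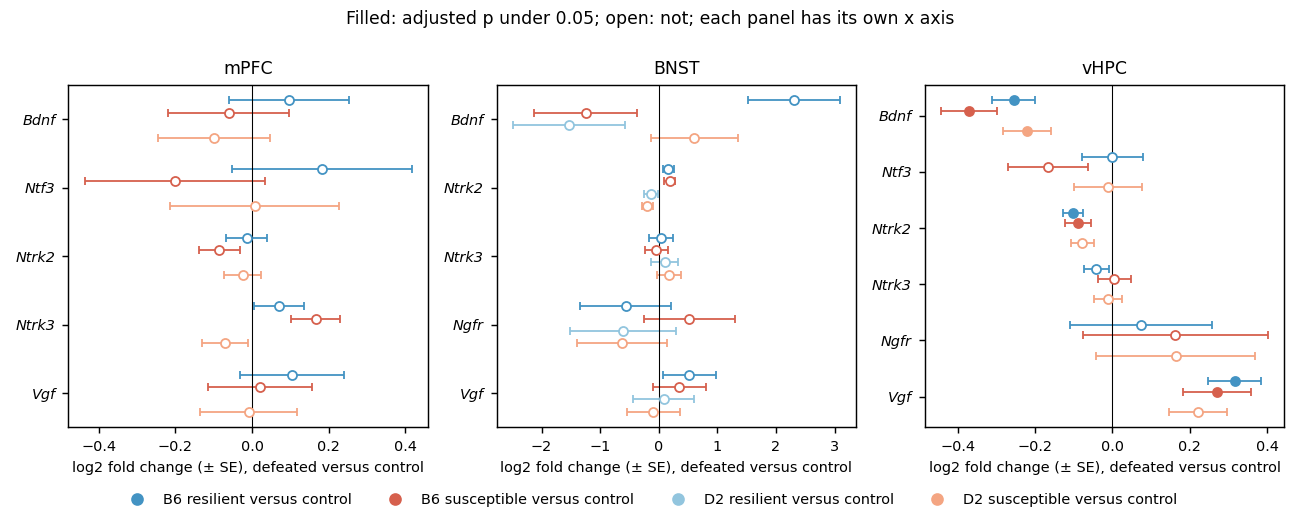
Log2 fold change with its SE of each gene, defeated against same-strain control mice, in the 3 regions, with filled points for adjusted p under 0.05. Filled points appear in the vHPC panel for Bdnf, Ntrk2 and Vgf, and the BNST axis is far wider, with Bdnf from -1.53 to 2.3.

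In the BNST 0 of 40 tests were called by edgeR, and 4 had an unadjusted p under 0.05. DESeq2 called 2 of them, Bdnf between susceptible and resilient B6 mice and the Ntrk2 interaction. The share of all genes called by edgeR was 0% in each of the 4 comparisons of defeated with control mice, 0.00571% between susceptible and resilient B6 mice, 0% between susceptible and resilient D2 mice, 2.51% between the control strains and 0% for the interaction. Bdnf was sparse, at 1 to 212 reads a library. Control B6 mice had 0.58, 1.11, -0.11, -3.15 and -0.30 log2 CPM (22, 32, 14, 1 and 13 reads). Resilient B6 mice had -0.32, 2.131, 4.04, -2.12 and 2.31 (11, 66, 212, 3 and 68 reads), and susceptible B6 mice -2.05, -1.03, -1.62, -0.99 and -0.18 (3, 5, 5, 7 and 11 reads). The 3 highest B6 mice were resilient, but the other 2 resilient mice lay among the controls and susceptible mice. Control D2 mice had 0.78, 2.132, 0.46, 0.86 and 1.44 log2 CPM (24, 52, 23, 24 and 50 reads), resilient D2 mice 0.00, -0.40 and -0.40 (16, 11 and 11 reads) and susceptible D2 mice 3.03, 2.52, 1.45, 0.04 and -1.07 (116, 154, 39, 22 and 10 reads). The 3 resilient D2 mice were below every D2 control, and the susceptible D2 mice spread over the whole range. How many of all BNST genes separate resilient from control D2 mice is not given here.

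Between susceptible and resilient B6 mice the log2 fold change of Bdnf was -3.55 (SE 0.864, unadjusted p = 0.000337), which did not pass the test over all genes (edgeR adjusted p = 0.268) but did with DESeq2 (-3.57, adjusted p = 0.00647), and the adjusted p ranged from 0.00647 to 0.686 over all alternatives. It was lower in susceptible mice in both library sets, by 3.78 and 1.45. Leaving out resilient replicate 3, the library with 212 Bdnf reads, gave -2.49 (adjusted p = 0.686) here and moved the difference between resilient and control B6 mice from 2.3 (SE 0.786, adjusted p = 1.0) to 1.25 (adjusted p = 1.0). The other differences from controls were -1.25 in susceptible B6 mice (SE 0.877, adjusted p = 0.900), -1.53 in resilient D2 mice (SE 0.956, adjusted p = 0.902) and 0.60 in susceptible D2 mice (SE 0.742, adjusted p = 0.966). The last was -1.26 and 1.2 in the 2 library sets and 0.07 without susceptible D2 replicate 1, so no direction is given for it.

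Cortical neuron markers moved with Bdnf in the BNST. The summed level of 5 such markers, none at 0, was 137.7 to 191.9 CPM in control, 123.0 to 589.3 in resilient and 143.0 to 174.6 in susceptible B6 mice, and 149.1 to 388.1 in control, 146.0 to 158.1 in resilient and 121.2 to 264.0 in susceptible D2 mice. The 3 resilient B6 mice with the highest Bdnf had 254.7, 444.8 and 589.3 CPM. Within groups, over 28 mice, Bdnf correlated with this sum (Pearson r = 0.68, permutation adjusted p = 0.0328, Spearman rho = 0.751, adjusted p = 0.00425, r = 0.629 without the 2 mice farthest from the median). The r was 0.457 and 0.786 in the 2 library sets. This is 1 of 255 relations computed between the genes and marker sums, over which the p values were adjusted, and the part of these cells in the Bdnf difference was not tested.

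Ntf3, at 0 reads in 10 of the 28 BNST libraries, was compared by an exact two-sided permutation test. D2 controls had 0, 0, 0, 0 and 2 reads and the 3 resilient D2 mice 1, 3 and 7 (exact p = 0.0714), susceptible D2 mice 0, 1, 4, 5 and 8 (exact p = 0.143), and B6 controls 0, 2, 2, 3 and 5 (exact p = 0.0714 against D2 controls). No Ntf3 difference passed the exact test in the BNST.

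Ntrk2 was the steadiest of the 6 genes in the BNST. B6 controls had 9.13, 9.14, 9.25, 9.33 and 9.18 log2 CPM, and susceptible B6 mice 9.29, 9.30, 9.45, 9.38 and 9.53. D2 controls had 9.16, 9.40, 9.21, 9.32 and 9.27, and susceptible D2 mice 9.06, 9.14, 9.11, 8.98 and 9.10. The B6 groups overlapped, with susceptible mice higher on average, whereas all 5 susceptible D2 mice were below every D2 control. The share of all BNST genes with groups separate in this way is not given here. The log2 fold changes, 0.18 in B6 (SE 0.099, edgeR adjusted p = 0.809) and -0.20 in D2 (SE 0.099, adjusted p = 0.857), did not pass the test. Nor did their difference, an interaction of -0.38 (SE 0.140, unadjusted p = 0.0118, adjusted p = 0.257), which passed with DESeq2 (-0.40, adjusted p = 0.0414). The sign of the interaction turned, to 0.19, both without TMM scaling of the libraries and with voom and ComBat, the steps that the study's methods name. Its adjusted p ranged from 0.0414 to 0.625 over all alternatives. Both fold changes against controls also turned sign in 2 alternatives each, with ranges of -0.07 to 0.22 in B6 and -0.22 to 0.13 in D2.

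Ngfr varied widely within the BNST groups, and Vgf within some of them. Ngfr was 2.72 to 5.66 log2 CPM in control, 1.72 to 4.72 in resilient and 2.5 to 5.96 in susceptible B6 mice, and 3.91 to 6.09 in control, 2.31 to 5.67 in resilient and 1.0 to 5.75 in susceptible D2 mice. Vgf was 6.81 to 8.09 in control, 7.56 to 8.58 in resilient and 6.86 to 9.25 in susceptible B6 mice, and 4.2 to 8.02 in control, 7.03 to 7.75 in resilient and 6.68 to 7.58 in susceptible D2 mice. The groups overlapped for both genes. The SD of Vgf was 0.982 in susceptible B6 and 1.54 in control D2 mice, each with 1 mouse far from the rest, and 0.325 to 0.523 in the other groups. Ntrk3 overlapped as well, from 7.34 to 9.10 log2 CPM over all 28 mice.

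The spread between mice of a group set some of the genes apart from other genes of like level (within 0.5 log2 CPM). In the BNST the SD was 1.45 for Ngfr, 0.843 for Vgf and 1.51 for Bdnf, larger than in 99.8%, 99.5% and 97.4% of genes of like level. For Vgf this rests largely on the susceptible B6 and control D2 groups. For Ntrk2 it was 0.0983, and only 0.61% of 164 genes of like level varied less. Ntrk3 was ordinary there, with 56.7% of like genes below it. In the mPFC Bdnf (SD 0.279) and Vgf (0.242) varied more than 97.4% and 97.5% of like genes. Ntrk2 (0.088) and Ntrk3 (0.11) were not unusual in the mPFC, with 40.3% and 64.4% below them. In the vHPC Ntrk2 (0.0343) varied less than most, with 4.4% of like genes below it, and Bdnf (0.101) was in the middle with 49.3% below it.

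**Figure D4:**
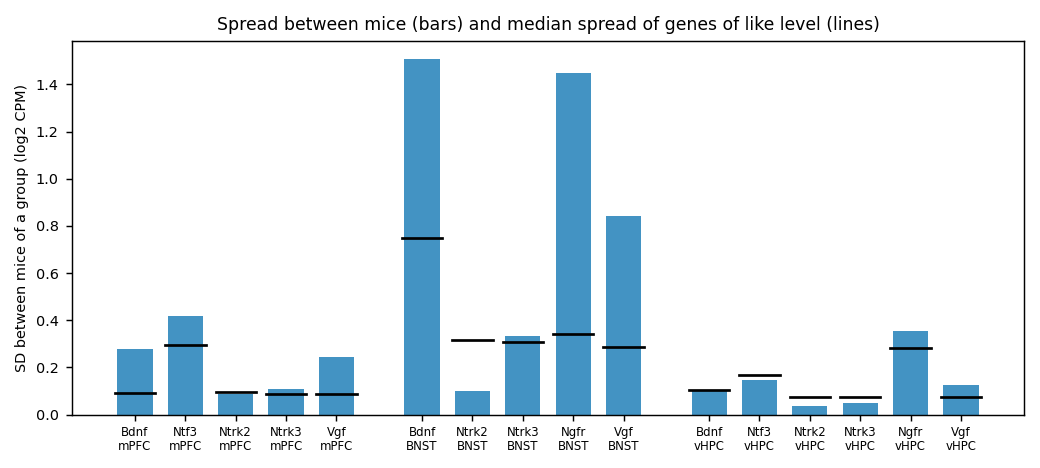
SD between mice of a group (log2 CPM, bars) for each gene in each region, with lines for the median SD of genes within 0.5 log2 CPM. Bdnf, Ngfr and Vgf stand above their lines in the BNST, and Ntrk2 at 0.0983 stands below its line at 0.317.

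Part of this spread ran along cell type markers. In the BNST, Ngfr correlated within groups with the summed oligodendrocyte markers (r = 0.742, permutation adjusted p = 0.000956, rho = 0.756, adjusted p = 0.000927, r = 0.681 without 2 mice, 0.746 and 0.773 in the 2 library sets). It also correlated with the cholinergic neuron markers (r = 0.628, adjusted p = 0.0082, rho = 0.751, adjusted p = 0.00085, 0.594 without 2 mice, 0.621 and 0.645 in the sets). Vgf correlated with the excitatory neuron markers (r = 0.796, adjusted p = 0.00113, rho = 0.809, adjusted p = 0.000927, 0.70 without 2 mice, 0.783 and 0.819 in the sets). Ntrk2 correlated with the astrocyte markers in the BNST (r = 0.636, adjusted p = 0.0145, rho = 0.617, adjusted p = 0.0223, 0.613 without 2 mice, 0.335 and 0.878 in the sets) and in the mPFC (r = 0.809, adjusted p = 0.000729, rho = 0.798, adjusted p = 0.00085, 0.674 without 2 mice, 0.47 to 0.956 in 4 sets). Ntrk3 in the mPFC followed the excitatory neuron markers (r = 0.857, adjusted p = 0.000729, rho = 0.868, adjusted p = 0.00085, 0.856 without 2 mice, 0.817 to 0.927 in 4 sets). These belong to the same 255 relations, and the adjusted p of 0.000729 is the smallest that the permutations gave in this family.

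**Figure D5:**
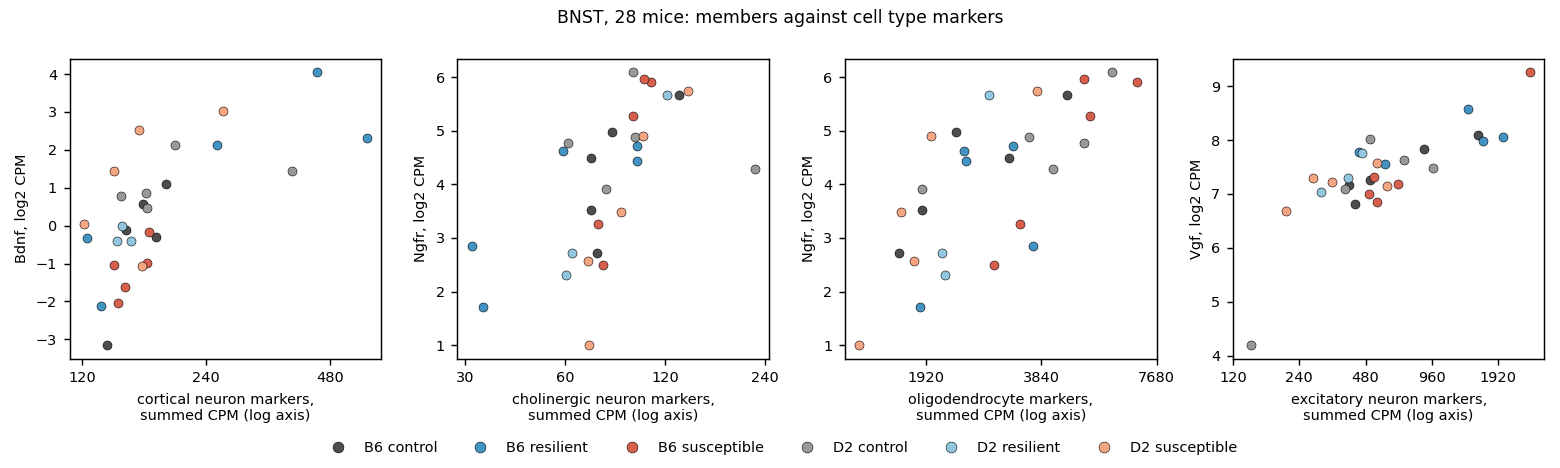
Level of neurotrophin genes (log2 CPM) against summed markers of a cell type (CPM, log axis) in the 28 BNST mice, 1 point a mouse, colored by group. Higher Bdnf goes with higher cortical neuron markers (within-group r = 0.68), and Ngfr with oligodendrocyte markers (r = 0.742).

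Among themselves the genes were most closely related in the mPFC. Of 40 pairs tested over the 3 regions within groups, Bdnf and Vgf in the mPFC had r = 0.826 (permutation adjusted p = 0.0002, rho = 0.795, adjusted p = 0.0004, r = 0.789 without 2 mice, 0.759 to 0.942 in 4 library sets). Bdnf and Ntrk2 had r = 0.761 (adjusted p = 0.00293, rho = 0.656, adjusted p = 0.00733, 0.591 without 2 mice, 0.513 to 0.94 in the sets), and Ntrk2 and Ntrk3 r = 0.747 (adjusted p = 0.0002, rho = 0.741, adjusted p = 0.0006, 0.641 without 2 mice, 0.606 to 0.821 in the sets). In the BNST the only pair past the threshold was Ntf3 and Ngfr, in opposite directions (r = -0.692, adjusted p = 0.00536, rho = -0.673, adjusted p = 0.008, -0.658 without 2 mice, -0.718 and -0.654 in the sets), with Ntf3 at 0 to 9 reads. In the vHPC no library set held 6 mice, so no value within sets could be had there. Ntf3 and Vgf ran in opposite directions (r = -0.587, adjusted p = 0.0197, rho = -0.581, adjusted p = 0.0232, -0.511 without 2 mice). Bdnf and Ntrk2, both lower on average after defeat in the vHPC, were not shown to be related there between mice of a group (r = -0.248, permutation adjusted p = 0.631, rho = -0.0668, adjusted p = 0.892). The r turned to 0.212 without 2 mice.

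Across all 3 regions, the genes whose group-centered values were most like those of each neurotrophin gene were picked by the mean Pearson r over the regions (32, 28 and 28 mice) among 13397 genes. For Bdnf they were Pcsk1, a prohormone convertase (0.566), Fam19a1 (0.551) and Nrn1, which encodes neuritin (0.544). For Ntrk2 they were Map1b (0.696), Ank2 (0.692) and Cacng2 (0.663), and for Vgf Mapk8ip1 (0.873), Taok2 (0.85) and Agap3 (0.842). Those named for Ntrk3 include Dlg2 (0.851) and Lgi1 (0.73). The mean r for Bdnf was carried by the mPFC and BNST, where Pcsk1 had 0.773 and 0.776, against 0.148 in the vHPC.

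The wider pathway was taken as 86 genes in 5 lists: other ligands and receptors, processing and secretion, Trk signaling, p75 signaling, and genes induced by activity or TrkB. In the vHPC of susceptible B6 mice 23 of 82 tested genes rose and 8 fell (37.8%, against 40.64% of all genes). The share of all genes is not split by direction here, so the counts by direction below are not read as a rise of the pathway. Among the genes induced by activity or TrkB 7 of 21 rose and 2 fell. Their median log2 fold change was 0.20, against -0.0099 for all genes. The transcription factors Egr2 (1.44, SE 0.255, limma adjusted p = 0.000119) and Fosb (1.23, SE 0.159, adjusted p = 2.44e-06) rose, and Cort, a neuropeptide of interneurons, fell by 0.61 (SE 0.208, adjusted p = 0.0217). Of Trk signaling 10 of 29 rose, among them the kinase Mapk3 (0.79, SE 0.166, adjusted p = 0.000667), and 3 fell. Of the 16 processing and secretion genes measured 3 rose, among them the protease Furin (0.58, SE 0.118, adjusted p = 0.000463), and 2 fell, among them Plat, the tissue plasminogen activator (-0.45, SE 0.105, adjusted p = 0.00166). Of the 9 p75 signaling genes 3 rose, among them Rtn4r, the Nogo receptor (0.63, SE 0.144, adjusted p = 0.00137).

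In resilient B6 mice 6 of the 82 rose and 2 fell (9.76%, against 10.84% of all genes), including Junb (0.40, SE 0.071, adjusted p = 0.000312) and Fosb (0.56, SE 0.122, adjusted p = 0.00282). In susceptible D2 mice 3 rose and 1 fell (4.88%, against 4.28%), again with Junb (0.37, SE 0.079, adjusted p = 0.00522) and Fosb (0.62, SE 0.137, adjusted p = 0.00683) among those that rose. Between susceptible and resilient B6 mice 18 rose and 4 fell (26.8%, against 27.63%). Between the control strains 36 were higher in D2 and 16 lower (63.4%, against 59.32%). In these vHPC comparisons the shares lay near those of all genes, and the limits on library sets given for Bdnf hold for these genes too. In the mPFC 1 rose (Furin, 0.30, SE 0.062, adjusted p = 0.0142) and 1 fell (Cadps2, -0.33, SE 0.078, adjusted p = 0.0266) of 81 in susceptible B6 mice (2.47%, against 2.22% of all genes). Between susceptible and resilient B6 mice 3 were higher and 2 lower (6.17%, against 2.02%), with no test of that difference in share, and 11 were higher and 12 lower in D2 than in B6 controls (28.4%, against 27.79%). In the BNST edgeR called 0 of 82 in each of the 8 comparisons, with 0 to 9 at an unadjusted p under 0.05.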

How the data were processed

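Male mice gave 88 libraries of ribosomal RNA-depleted total RNA. As stated in the study's methods, adapters were trimmed (FastX toolkit, or Cutadapt for the vHPC), PCR duplicates removed with PRINSEQ, reads aligned with STAR to GRCm38 and counted per gene with HTSeq (GTF release 86). The deposited BNST values are raw read counts. The study's methods name voom, ComBat and limma for the BNST as well, which were run here only as an alternative. The deposited mPFC and vHPC values are log2 CPM that the authors obtained from voom. ComBat had then been applied against library preparation sets and, for the vHPC, sequencing sets. Such an adjustment can take away part of a group difference and can make later p values too small. Genes reaching 1 CPM in 6 or more libraries had been kept.

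Software was R 4.3.3 and Python 3.11.15 (pandas 2.3.3, SciPy 1.17.1, NumPy 2.4.6). The log2 CPM tables were fitted with limma 3.58.1 (group means over all groups of a region, robust empirical Bayes). BNST counts were filtered in the same way (17515 genes kept of 48795 listed, and 8699 of those listed had no reads), TMM scaled and fitted with edgeR 4.0.16 (robust quasi-likelihood test). TMM factors were 0.656 to 1.27, and printed BNST levels are log2 CPM with a prior count of 0.5. The SE printed for BNST fold changes, also in the figure, is the absolute log2 fold change divided by the square root of the edgeR F statistic. It is derived from the test and not estimated as limma's SE is. P values were adjusted over all genes of a table by the Benjamini-Hochberg method, and a call is an adjusted p under 0.05. Alternatives included DESeq2 1.42.0, sva 3.50.0 for ComBat, batch covariates, filters and leaving out each mouse. Levels per kilobase used the union of exons in GENCODE M21. Correlations used group-centered values and 100000 permutations within groups. The fits were tested on simulated data. The genes and lists were chosen with earlier results of these data known. Of each pathway list, named genes were taken from the called genes with the largest changes, up to 2 in each direction. Relations with marker sums were added after seeing the data. Replicates are separate mice. Some genes that these rules select are not reported here.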

Additional observations from a re-analysis of the deposited data

Results flagged for a closer look

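In 79 sets of values, each of 1 gene in 1 group of 4 to 10 mice, 6 held a mouse far from the rest by Dixon's test at the 95% level. Chance gives this in about 1 in 20 independent sets, but these sets share mice. Ntf3 in the mPFC was 0.0384 log2 CPM in D2 control replicate 1 against 0.868 to 1.23 in the other D2 controls. Ntf3 in the BNST was -2.26 in D2 control replicate 2, from 2 reads, against -5.22 to -4.75 in the other D2 controls, which had 0. Ntrk3 in the BNST was 8.43 in D2 susceptible replicate 5 against 8.77 to 8.88. Vgf in the BNST was 9.25 in B6 susceptible replicate 3 against 6.86 to 7.32. That library also had the highest excitatory (2688 CPM) and striatal neuron marker sums (4428 CPM) of the 28. It had the most gene reads (25793910) and the lowest TMM factor (0.656) of the 28 as well. Vgf in the BNST was 4.2 in D2 control replicate 2 against 7.1 to 8.02, and that library had the lowest excitatory (145.0 CPM) and the highest cholinergic (223.8 CPM) and inhibitory (1929 CPM) marker sums of the 28. Ntrk2 in the vHPC was 9.45 in B6 control replicate 5 against 9.5 to 9.53. The part of the marker differences and of read depth in these values was not tested.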

How the results depend on the processing

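No paired analysis was possible because replicate numbers only name the mice, in accession order, and no mouse is in more than 1 group of a region. In 12 of 20 comparisons the count of neurotrophin genes called was unchanged in every alternative, and none of the 11 calls reversed. In the vHPC, library set as a covariate gave 0 calls, against 3 in resilient B6, 3 in susceptible B6, 1 in susceptible D2 and 3 between control strains. Sequencing set as a covariate gave 0 in resilient B6 and 0 in susceptible D2 mice. Fitting only the groups compared gave 1 in susceptible B6 and 0 in susceptible D2 mice, sequencing set 1 alone gave 1 in susceptible B6 mice, and quantile normalization gave 2 in susceptible D2 mice. Leaving out 1 mouse gave 1 to 3 in susceptible B6 and 0 to 1 in susceptible D2 mice. In the mPFC, quantile normalization gave 1 against 0 in susceptible B6 mice and 2 against 1 between control strains, and leaving out 1 mouse gave 0 to 1 and 1 to 2. In the BNST, DESeq2 gave 1 against 0 between susceptible and resilient B6 mice and 1 for the interaction, which also had 1 (Ntrk3) without TMM (0.84, adjusted p = 0.0393) and 1 with voom and ComBat (0.90, adjusted p = 0.0289), both chosen after seeing the data, against 0.22 (adjusted p = 0.835, alternatives 0.0289 to 0.984). Without TMM the median of all genes moved to -0.25 in susceptible B6, 0.27 in susceptible D2 mice and 0.53 for the interaction. Over all genes, library set took the vHPC calls from 2120, 7949, 5404, 837 and 11603 to 41, 202, 0, 3 and 1643 (resilient B6, susceptible B6, susceptible against resilient, susceptible D2, control strains), and the mPFC calls from 420 to 39 in susceptible B6 mice and from 383 to 2 against resilient mice, while mouse ID prefix as a covariate gave 0 for both. In the BNST the interaction went from 0 to 223 with DESeq2, 1416 without TMM and 2475 with voom and ComBat, and susceptible against resilient B6 mice from 1 to 42 with DESeq2. The cause was not tested. Ntf3 and Bdnf rest on few reads in the BNST.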
